A study of Mus musculus with 46 samples.

Results

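The genes described here are 8 members of the transforming growth factor beta (TGF-beta) pathway in mouse lung: the ligands Tgfb1, Tgfb2 and Tgfb3, the receptors Tgfbr1 and Tgfbr2, and the SMADs Smad3, Smad6 and Smad7. They are 8 of 13411 genes with a tested probe set of 1 gene symbol. Members were the probe sets that the platform annotation gives to these symbols on array types A, B and C. That rule found 12 probe sets, 8 on A and 4 on B, none of which carries a further symbol. Tgfb1 had 1 probe set. For 4 genes a second probe set on A stayed below the filter value of that array type on all 14 arrays and was not tested. These were Tgfb3 (161382_at), Tgfbr1 (92427_at), Tgfbr2 (94702_at) and Smad3 (93613_at), whose intensities reached at most 85.2, 48.8, 36.9 and 91.0. Each gene therefore had 1 tested probe set.

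Total lung RNA was hybridised from wild type and Nrf2 mutant mice kept in 100% oxygen for 0, 24, 48 or 72 h, which gave 8 groups. Nrf2 is the transcription factor made from Nfe2l2, and it switches on genes of antioxidant defence. The labels name replicates 1a and 1b in each group and do not give strain, age, sex or the kind of Nrf2 mutation. They do not say that 1a and 1b came from separate animals, so p-values measure only the spread between these samples, which may be technical. Array type A holds 1 array (n = 1, replicate 1b) for mutant 0 h and for wild type 24 h. All other groups had 2.

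TGF-beta ligands are secreted in a latent form bound to matrix proteins and act after release. The active ligand binds the type II receptor, which phosphorylates the type I receptor, and this in turn phosphorylates Smad2 and Smad3, which enter the nucleus with Smad4. Smad6 and Smad7 are inhibitory SMADs that are induced by the signals they oppose, and in the lung the pathway is known for its control of matrix production and repair after injury.

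The mutant 0 h arrays stood apart from all others. Within an array type they correlated with the rest at a mean of 0.827 to 0.858, against 0.880 to 0.940 for the other 41 arrays, and their Gapdh 3' to 5' signal ratio was 1.67 to 2.26, against 0.858 to 1.54. All 5 skeletal muscle markers were called higher in the mutant at 0 h, where 252 of all 13411 genes were called higher and 220 lower. The summed intensity of the 3 on array type A was 24433 there and 2004 to 2303 in wild type at 0 h. Of 6 squamous epithelium markers 3 were higher. The 3 on array type A summed to 17627 against 1501 to 1932. Of 4 T and B cell markers 2 were lower, as was 1 of 6 macrophage markers, and none of those on array type A was at 0. Below the filter value on the mutant 0 h array lay 1 of the T and B cell markers and 2 of the macrophage markers. Of 4 platelet markers 0 were called at 0 h. Fibroblast markers, which include Col1a1, Col1a2 and Col3a1, summed to 21079 on the mutant 0 h array of type A. In wild type at 0 h they summed to 11943 to 14374. The endothelial sum was 8670 against 11361 to 11984, and the neutrophil sum was 12791.5 against 8348 to 9055. Their part in the results was not tested. Changes of the members in the mutant from 0 h are also given against the wild type 0 h arrays, a setting chosen after the data were seen. The lung identity of the tissue was checked with Sftpc, a surfactant protein of alveolar type II cells. Its mean intensity lay between 12578 and 25057 in the 8 groups. In whole lung, fewer cells of a type and less RNA per cell cannot be told apart.

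The sequence before the start site was available from RefSeq (GRCm38.p6) for 6 of the 8 genes, all but Tgfb3 and Smad7. The 250 bases upstream are printed for the members the results turn on: Smad6 and Tgfbr2, which were each called higher under oxygen in both genotypes, and Tgfb1, the only member called between genotypes. Capitals mark matches, on either strand, to the SMAD element CAGAC or to the antioxidant response element core TGACNNNGC, through which Nrf2 binds.
Smad6, chr9:64022060-64022309, minus strand: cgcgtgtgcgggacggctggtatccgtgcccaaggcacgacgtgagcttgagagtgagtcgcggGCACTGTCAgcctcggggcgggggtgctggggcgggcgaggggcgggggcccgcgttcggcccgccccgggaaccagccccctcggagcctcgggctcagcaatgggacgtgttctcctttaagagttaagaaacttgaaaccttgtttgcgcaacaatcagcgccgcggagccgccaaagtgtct
Tgfbr2, chr9:116175364-116175613, minus strand: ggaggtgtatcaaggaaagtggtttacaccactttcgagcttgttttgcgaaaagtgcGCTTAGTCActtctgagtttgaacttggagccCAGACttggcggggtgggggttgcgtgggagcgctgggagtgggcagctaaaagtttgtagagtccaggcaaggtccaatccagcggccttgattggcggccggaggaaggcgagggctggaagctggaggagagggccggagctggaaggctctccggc
Tgfb1, chr7:25686752-25687001, plus strand: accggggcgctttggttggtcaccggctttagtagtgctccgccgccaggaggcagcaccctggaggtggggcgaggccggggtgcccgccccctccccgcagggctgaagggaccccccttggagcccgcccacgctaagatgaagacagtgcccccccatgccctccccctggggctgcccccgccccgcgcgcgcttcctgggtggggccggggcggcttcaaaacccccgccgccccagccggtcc
Smad6 held 1 match to the antioxidant core, 186 bases upstream of the start, and none to CAGAC. Tgfbr2 held 1 CAGAC, at 160 bases upstream, and 1 antioxidant core, at 192. Tgfb1 held no match to either. CAGAC was present in 42.2% of the 32851 promoter windows of this length and TGACNNNGC in 10.2%. The GC-rich SMAD element GGCGCC, present in 9.59%, was in none of these 3 windows. These matches are descriptions of letters in a window.

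Tgfb1 (101918_at on array type A, gene ID 21803, chromosome 7, 25687002 to 25705077 on GRCm38) encodes the ligand most often linked to lung matrix deposition. In wild type its intensity was 518 and 555 at 0 h, 1280.3 at 24 h, 995 and 625 at 48 h, and 709 and 652 at 72 h. Mutant intensities were 37.5 at 0 h, 963 and 1726 at 24 h, 861 and 983 at 48 h, and 827 and 1549 at 72 h. The mutant 0 h array was the lowest of the 14. The next lowest were the wild type 0 h arrays, and no oxygen array overlapped them. From high to low mean, the order was mutant 24 h, wild type 24 h, mutant 72 h, mutant 48 h, wild type 48 h, wild type 72 h, wild type 0 h and mutant 0 h. Each neighbouring pair overlapped except the last 2 steps.

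At 0 h Tgfb1 was lower in the mutant by a log2 difference of -2.41 ± 0.39 (SE, limma, adjusted p = 0.013). It was the only 1 of the 8 members called there, where 2.75% of all 26833 tested probe sets were called. The value of 37.5 lies below the filter value of 195, so this difference depends on the value of 78.1 added before the log2, and no fold is given. It rests on 1 array, which held the skeletal and squamous markers described above; their part in the result was not tested. Leaving out replicate 1a or 1b of wild type at 0 h ended the call (adjusted p = 0.0637 and 0.0549).

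Under oxygen Tgfb1 did not differ between genotypes at the threshold. The mutant minus wild type difference was 0.01 at 24 h (95% interval -0.86 to 0.89), 0.20 at 48 h (-0.51 to 0.91) and 0.68 at 72 h (-0.03 to 1.39, adjusted p = 0.552). At 72 h the 2 mutant arrays lay above the 2 wild type arrays. In wild type, Tgfb1 was not called against 0 h, with log2 differences of 1.14 ± 0.39 at 24 h (adjusted p = 0.197), 0.50 ± 0.32 at 48 h and 0.30 ± 0.32 at 72 h. In the mutant it was called higher than on its own 0 h array at 24, 48 and 72 h, with adjusted p = 0.000233, 0.000737 and 0.000268. The sizes depend on the value added to 37.5 before the log2 and are no measured folds: at 24 h the log2 difference was 3.57 as fitted and 4.05 with a floor in place of that value. Set against wild type 0 h, the same mutant arrays gave 1.16 at 24 h (adjusted p = 0.0465), 0.70 at 48 h (adjusted p = 0.25) and 0.98 at 72 h (adjusted p = 0.0746). The call at 24 h stayed and those at 48 h and 72 h were lost.

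The response of Tgfb1 to 72 h of oxygen was called different between genotypes (log2 3.09 ± 0.51, adjusted p = 0.02), the only member called in that test, where 1.36% of all tested probe sets were called. It rests on the same mutant 0 h array below the filter value, so its size depends on the added value too and was 3.52 with the floor. Leaving out replicate 1a or 1b of wild type at 0 h gave adjusted p = 0.0683 and 0.0614, and 1a or 1b at 72 h gave 0.0509 and 0.0715, so the call was lost.

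Genes whose pattern was most like that of Tgfb1 were found by the correlation of log2 values on array type A. Over all 14 arrays these were Arhgef1 (r = 0.959), Clptm1 (r = 0.936) and Bag6, a chaperone of newly made proteins (r = 0.934). All 3 were low on the mutant 0 h array. Arhgef1 had an intensity of 103 there and 318 to 774 on the others. Over the 13 arrays without it the list was Ace, the angiotensin-converting enzyme of lung endothelium (r = 0.884), Supt6 (r = 0.881) and Tnxb (r = 0.869). Ace was 5596 in wild type at 24 h and 4089.7 and 5981 in the mutant, against 1697 and 1708 in wild type at 0 h. No gene was in both lists. On those 13 arrays the r was 0.847 for Arhgef1, 0.868 for Clptm1 and 0.749 for Bag6. These correlations share arrays and scaling and carry no test.

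**Figure D1:**
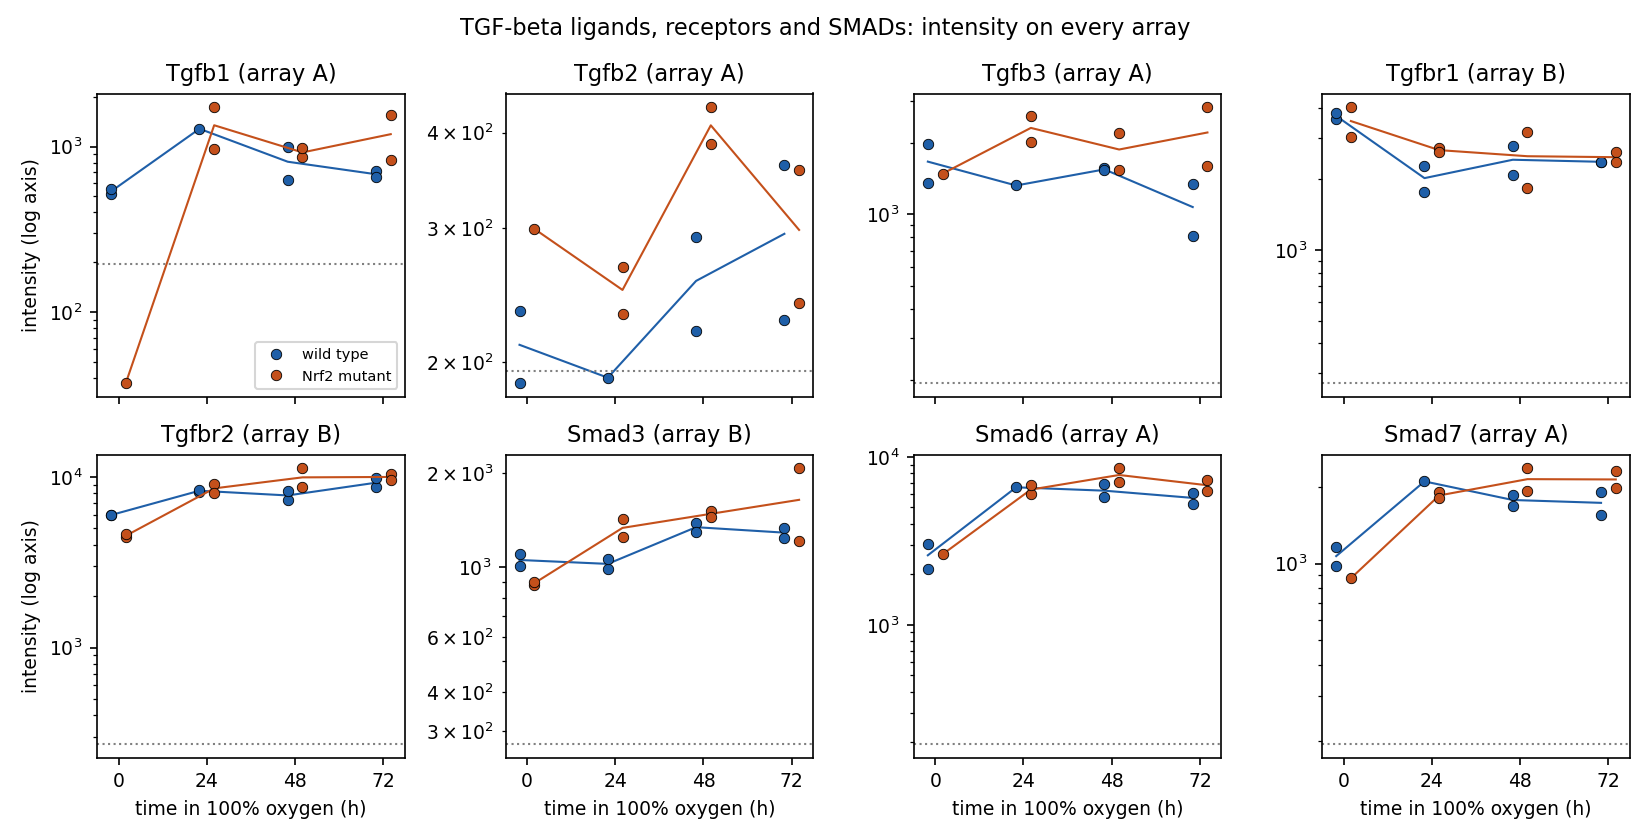
Intensity of the 8 tested member probe sets on every array (log axis, each panel with its own range) against hours in 100% oxygen. Points are arrays, lines join group means, and the dotted line is the filter value of the array type (195 on A, 272 on B). Tgfb1 lies under the dotted line on the mutant 0 h array (37.5). Tgfb1, Tgfbr2, Smad6 and Smad7 lie higher on every oxygen array than on any 0 h array. The share of all probe sets with such a gap was not counted.

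The other ligands were not called in any of the 15 comparisons. Tgfb2 (93300_at, array type A, gene ID 21808, chromosome 1) was dim, with intensities of 188 to 432 on 14 arrays, 12 of them above the filter value. Its genotype difference reached 0.55 ± 0.23 at 48 h (adjusted p = 0.491), where 386 and 432 in the mutant lay above 219.6 and 292 in wild type. Tgfb3 (102751_at, array type A, gene ID 21809, chromosome 12) was brighter. In wild type it was 1987 and 1351 at 0 h, 1324 at 24 h, 1561 and 1534 at 48 h, and 1336 and 811 at 72 h. The mutant arrays gave 1484 at 0 h, 2028 and 2602 at 24 h, 2211 and 1543 at 48 h, and 2829 and 1600.3 at 72 h. At 24 h and 72 h the mutant arrays lay above the wild type arrays, and at 48 h they overlapped. The genotype difference of Tgfb3 was 0.98 ± 0.32 at 72 h (unadjusted p = 0.0114, adjusted p = 0.289) and 0.66 ± 0.20 as the mean of the 3 oxygen times (adjusted p = 0.193).

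Tgfbr2 (162600_at, array type B, gene ID 21813, chromosome 9, 116087695 to 116175363) encodes the type II receptor, which binds the ligand first. In wild type its intensity was 5989 and 5964 at 0 h, 8184 and 8402 at 24 h, 7322 and 8242 at 48 h, and 8682 and 9804 at 72 h. Mutant arrays read 4425 and 4616 at 0 h, 9124 and 7994 at 24 h, 11198 and 8666 at 48 h, and 10335 and 9637 at 72 h. Every oxygen array of either genotype was higher than all 4 arrays at 0 h, and the mutant 0 h arrays were the lowest. In wild type Tgfbr2 rose at 72 h (1.53-fold, log2 0.62 ± 0.17, adjusted p = 0.0421) and was not called at 24 h (0.46 ± 0.17) or 48 h (0.37 ± 0.17). In the mutant it rose by 0.90 ± 0.17, 1.10 ± 0.17 and 1.12 ± 0.17 at 24, 48 and 72 h. The largest adjusted p of these was 0.00238. Against wild type 0 h the mutant differences were 0.51 (adjusted p = 0.0763, no longer called), 0.71 (adjusted p = 0.0259) and 0.73 (adjusted p = 0.0132). The genotype difference was not called at any time; at 0 h it was -0.39 ± 0.17 (adjusted p = 0.247). The wild type call at 72 h was lost without either replicate of wild type at 0, 24, 48 or 72 h or of the mutant at 24 or 72 h, 12 of the 16 replicates, with adjusted p = 0.0506 to 0.221.

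Tgfbr1 (106644_at, array type B, gene ID 21812, chromosome 4, 47353222 to 47414926) encodes the type I receptor, the kinase that acts on Smad2 and Smad3. In wild type its intensity was 3613 and 3801 at 0 h, 2274 and 1760.5 at 24 h, 2749.6 and 2080.2 at 48 h, and 2373 and 2361 at 72 h. The mutant values were 3017 and 4035 at 0 h, 2705 and 2602 at 24 h, 1830.3 and 3169 at 48 h, and 2593 and 2359 at 72 h. All 6 wild type oxygen arrays lay below the wild type 0 h arrays, whereas in the mutant the 48 h arrays overlapped those of 0 h. None of this passed the test. The wild type differences were -0.85 ± 0.24 at 24 h (unadjusted p = 0.00421, adjusted p = 0.108), -0.61 ± 0.24 at 48 h (adjusted p = 0.174) and -0.62 ± 0.24 at 72 h (adjusted p = 0.154). In the mutant the Tgfbr1 differences from its own 0 h were -0.38, -0.51 and -0.48 at 24, 48 and 72 h, none called. Against 0 h of the same genotype, the receptor partners thus lay on opposite sides of 0 at each oxygen time, with calls only for Tgfbr2.

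Smad3 (112401_at, array type B, gene ID 17127, chromosome 9, 63646766 to 63757994) carries the receptor signal to DNA. In wild type its intensity was 1009.9 and 1104 at 0 h, 989.7 and 1064 at 24 h, 1391 and 1301 at 48 h, and 1341 and 1245 at 72 h. In the mutant it was 879.7 and 901 at 0 h, 1429 and 1249 at 24 h, 1519 and 1452 at 48 h, and 1218 and 2076 at 72 h. The mutant 72 h replicates were far apart. Smad3 rose in the mutant at 48 h (0.67 ± 0.20, adjusted p = 0.04) and 72 h (0.76 ± 0.20, adjusted p = 0.0188). Against wild type 0 h neither was called (0.45, adjusted p = 0.235, and 0.54, adjusted p = 0.108). The 48 h call was lost without either replicate of the mutant at 0 or 48 h or of wild type at 0, 24, 48 or 72 h, with adjusted p = 0.0503 to 0.158. That at 72 h was lost without mutant 0 h replicate 1a (adjusted p = 0.0643) or 1b (0.0764), and without mutant 72 h replicate 1b the difference was 0.40 (adjusted p = 0.165). In wild type Smad3 was not called (0.32 ± 0.20 at 48 h, 0.26 ± 0.20 at 72 h).

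Smad6 (104220_at, array type A, gene ID 17130, chromosome 9, 63953076 to 64022085) is an inhibitory SMAD best known for opposing signals of bone morphogenetic proteins (BMPs). In wild type its intensity was 2152 and 3036 at 0 h, 6589.9 at 24 h, 5730.4 and 6854 at 48 h, and 5261 and 6135 at 72 h. Mutant lung gave 2628 at 0 h, 5992 and 6784 at 24 h, 7073 and 8533 at 48 h, and 6291 and 7262 at 72 h. All 11 oxygen arrays lay above all 3 arrays at 0 h, and the mutant 0 h array fell between the wild type ones. Smad6 was the member that rose in every oxygen comparison of either genotype. In wild type it was 2.53-fold higher at 24 h (log2 1.34 ± 0.25, adjusted p = 0.0299), 2.41-fold at 48 h (1.27 ± 0.21, adjusted p = 0.00694) and 2.19-fold at 72 h (1.13 ± 0.21, adjusted p = 0.00854). In the mutant the differences were 1.25 ± 0.25, 1.54 ± 0.25 and 1.34 ± 0.25, with adjusted p = 0.00528, 0.00276 and 0.00393. Against wild type 0 h they were 1.29, 1.57 and 1.38, all called.

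The genotypes were not called different in Smad6 at any time, and the difference in the 72 h response was 0.21 (95% interval -0.51 to 0.93). The wild type calls were lost without wild type 0 h replicate 1a, the lower of that pair, with adjusted p = 0.115, 0.0535 and 0.0697 at 24, 48 and 72 h. The 48 h call was also lost without wild type 48 h replicate 1b (adjusted p = 0.061) and the 72 h call without wild type 72 h replicate 1b (adjusted p = 0.0708). In these cases the log2 difference stayed between 0.89 and 1.14. Without wild type 24 h replicate 1b or mutant 0 h replicate 1b, Smad6, Smad7 and Tgfb1 could not be tested in the comparisons that use them.

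Smad7 (92216_at, array type A, gene ID 17131, chromosome 18) is the inhibitory SMAD that blocks the TGF-beta type I receptor. In wild type its intensity was 1162 and 979.8 at 0 h, 2109 at 24 h, 1693 and 1869.7 at 48 h, and 1549.5 and 1922 at 72 h. In the mutant it was 876 at 0 h, 1907 and 1806 at 24 h, 1933 and 2371 at 48 h, and 1982 and 2310.2 at 72 h. As for Smad6, the 11 oxygen arrays and the 3 arrays at 0 h did not overlap. In wild type Smad7 rose at 48 h (1.62-fold, log2 0.70 ± 0.18, adjusted p = 0.0459). It was just short of the threshold at 24 h (0.93 ± 0.22, adjusted p = 0.0695) and 72 h (0.66 ± 0.18, adjusted p = 0.0532). In the mutant it rose by 1.02 ± 0.22, 1.22 ± 0.22 and 1.22 ± 0.22, with adjusted p = 0.00793, 0.00461 and 0.00323. Against wild type 0 h these were 0.76, 0.95 and 0.95, all called. The wild type 48 h call was lost without either replicate of wild type at 0 or 48 h or of the mutant at 24, 48 or 72 h, 10 of the 16 replicates, with adjusted p = 0.0517 to 0.248.

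**Figure D2:**
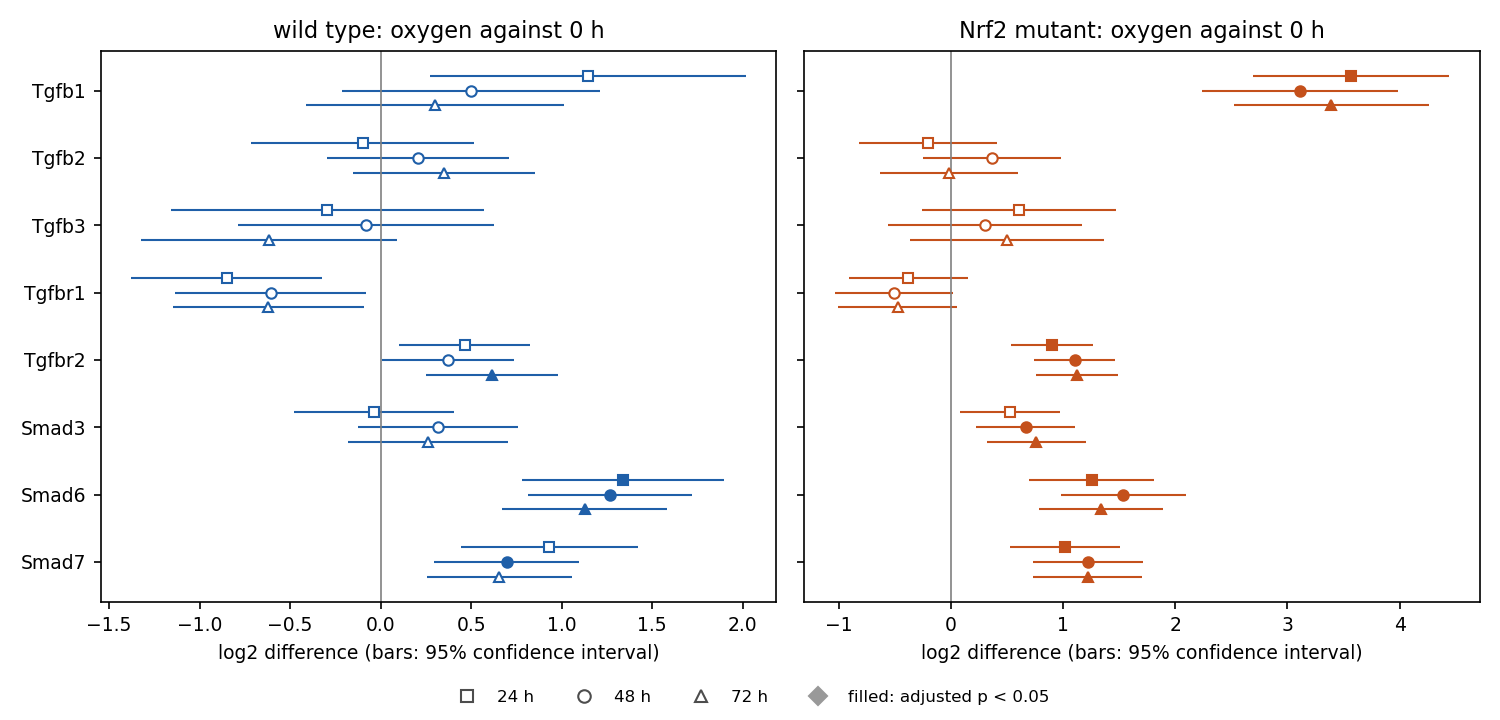
Log2 difference of each member at 24, 48 and 72 h of oxygen from 0 h of its own genotype, with 95% confidence intervals; filled symbols have an adjusted p under 0.05, and the panels have different ranges on the x axis. In wild type Smad6 is filled at all 3 times, Smad7 at 48 h and Tgfbr2 at 72 h; in the mutant Tgfb1 lies above 3, from a 0 h array at 37.5 that is below the filter value.

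Counted together, 1, 2 and 2 of 8 members were called in wild type at 24, 48 and 72 h, all higher, where 1.72%, 6.64% and 7.83% of all tested probe sets were called, 0.962%, 3.25% and 4.26% as higher. In the mutant 4, 5 and 5 were called, all higher, where 24.4%, 17.9% and 21.5% of all probe sets were called, 12.2%, 9.61% and 11% as higher. The median difference of the members was 0.21, 0.34 and 0.33 in wild type and 0.75, 0.88 and 0.94 in the mutant, while that of all probe sets lay between -0.06 and -0.02 in these 6 comparisons. Against wild type 0 h 3 members were called at each mutant time, where 10.2%, 6.45% and 12.9% of all probe sets were. These were Smad6 and Smad7 at each time, with Tgfb1 at 24 h and Tgfbr2 at 48 h and 72 h. The mutant comparisons share their 0 h arrays, as do those of wild type.

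Between 48 h and 72 h no member was called in limma in either genotype, 0 of 8 also at an unadjusted p under 0.05, where 0.596% of all probe sets were called in wild type and 2.05% in the mutant (12.4% and 13.5% unadjusted). The change of this step between genotypes gave 0 members as well, adjusted or not, where 0.0335% were called (6.89% unadjusted). Under oxygen, mutant and wild type did not differ in any member at 24, 48 or 72 h or in the mean of the 3 times. Called shares of all probe sets there were 0.157%, 0.376%, 0.82% and 1.25%. At an unadjusted p under 0.05 there were 0, 1, 1 and 1 members, against 9.76%, 9.01%, 9.68% and 11% of all probe sets. These were Tgfb2 at 48 h and Tgfb3 at 72 h and in the mean.

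**Figure D3:**
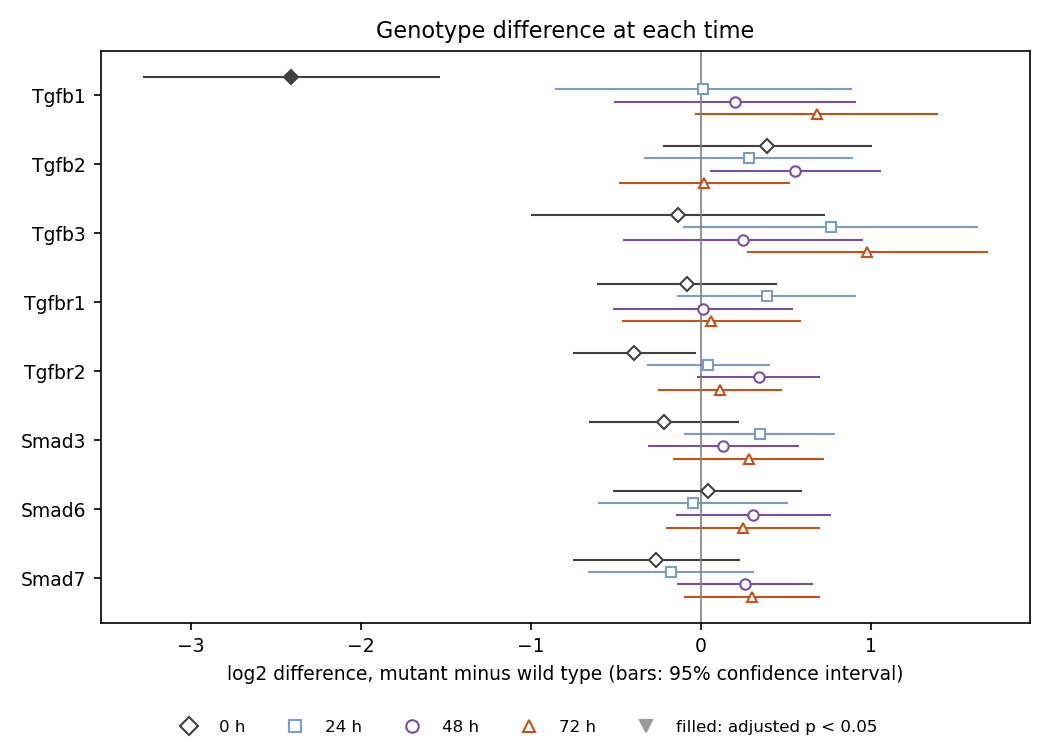
Log2 difference between mutant and wild type (mutant minus wild type) for each member at 0, 24, 48 and 72 h, with 95% confidence intervals; filled symbols have an adjusted p under 0.05. Only Tgfb1 at 0 h is filled, at -2.41, and Tgfb3 at 72 h has the highest difference, at 0.98.

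The other genes of the pathway were taken from lists. Among 10 other receptors of the superfamily, Tgfbr3, the co-receptor betaglycan, rose in wild type at 72 h (0.64 ± 0.18, adjusted p = 0.0428), and 0 were called at 24 h or 48 h. In the mutant 6, 5 and 7 of the 10 rose from its own 0 h at 24, 48 and 72 h and 0 fell, where 2067, 1599 and 1768 of all 13411 genes were higher. Only 3, 0 and 1 were called from wild type 0 h, where 10.2%, 6.45% and 12.9% of all probe sets were called. Eng, an endothelial co-receptor, was higher at 24 h by 1.79 ± 0.26 from its own 0 h and by 1.23 ± 0.21 from wild type 0 h, both called. Acvr2b, an activin receptor, was higher by 1.50 ± 0.21 from its own 0 h and not called from wild type 0 h (0.40, adjusted p = 0.173). Acvr2b was also the only receptor of this list called between genotypes at 0 h (-1.11 ± 0.21, adjusted p = 0.0219). Among all 13411 genes, 690 were higher and 619 lower in wild type at 72 h. Leaving out single replicates gave 0 to 1 receptors there.

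Among 12 measured other SMADs and SMAD regulators, 0, 2 and 3 rose in wild type at 24, 48 and 72 h and 0 fell, where 180, 545 and 690 of all 13411 genes were higher. At 48 h these were Ski, a corepressor of SMADs (0.93 ± 0.16), and Pmepa1, a TGF-beta target that sequesters receptor SMADs (0.95 ± 0.25). At 72 h they were Smad2, the partner of Smad3 (1.06 ± 0.18, adjusted p = 0.00574), Smad1, which carries BMP signals (0.78 ± 0.18), and Tgif1, a corepressor (0.83 ± 0.19). Tgif1 was also higher at 72 h than at 48 h (1.39 ± 0.19, adjusted p = 0.0132). In the mutant 4, 3 and 5 rose and 1, 2 and 2 fell from its own 0 h, where 2067, 1599 and 1768 of all genes were higher and 1858, 1298 and 1638 lower. From wild type 0 h 2, 2 and 4 rose and 0, 0 and 1 fell. Of all probe sets 10.2%, 6.45% and 12.9% were called there in either direction. The fall that stayed at 72 h was that of Bambi, a decoy receptor (-1.36 ± 0.25 from its own 0 h and -1.11 ± 0.25 from wild type 0 h). Smad9, a BMP SMAD, was above the filter value in the mean of mutant 0 h only (387.7) and at 44.4 to 186 in the other 7 groups. It was tested because it was high there, so its calls against that group are not read. The counts of falls from mutant 0 h given above still include them. Leaving out single replicates gave 0 to 2 rises in wild type at 48 h and 1 to 4 at 72 h.

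Among 9 tested genes of latency and activation, 1, 4 and 2 rose in wild type at 24, 48 and 72 h and 0 fell, where 180, 545 and 690 of all 13411 genes were higher and 99, 583 and 619 lower. Ltbp2, a matrix protein of the latent TGF-beta binding family, rose at 24 h (1.30 ± 0.23) and 48 h (1.08 ± 0.19). Itgav, the alpha v integrin chain of receptors that release active TGF-beta, rose at 48 h (1.08 ± 0.20) and 72 h (0.76 ± 0.20). Lrrc32, which tethers latent TGF-beta to the cell surface, rose at 48 h (1.15 ± 0.24) and 72 h (1.50 ± 0.24, adjusted p = 0.00306), and Ltbp1 at 48 h (0.88 ± 0.20, from a 0 h mean of 140 that lies below the filter value). In the mutant 4, 2 and 3 rose and 1, 1 and 0 fell from its own 0 h. Of all genes 2067, 1599 and 1768 were higher there and 1858, 1298 and 1638 lower. Against wild type 0 h 5, 2 and 2 rose, where 10.2%, 6.45% and 12.9% of all probe sets were called in either direction. Ltbp4 was the only gene of this list whose 72 h response differed between genotypes (1.50 ± 0.31, adjusted p = 0.0491). Its mutant 72 h difference was 1.23 ± 0.24 from the 0 h array that stood apart and 0.50 ± 0.20 from wild type 0 h, the second not called (adjusted p = 0.132). In the difference in response, 0 to 1 genes of this list were called under the alternatives other than leaving out replicates. Leaving out single replicates gave 0 to 2, 0 to 4 and 1 to 2 rises in wild type at 24, 48 and 72 h.

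Among 14 tested other ligands and antagonists of the superfamily, 0, 2 and 4 rose in wild type at 24, 48 and 72 h, where 180, 545 and 690 of all 13411 genes were higher. Inhbb, a subunit of activin B, rose at 48 h and 72 h (adjusted p = 0.00425 and 0.000119). Its mean intensity was 140 at 0 h, below the filter value, 517 at 48 h and 1087 at 72 h. Bmp2 rose by 0.79 ± 0.18 and 1.33 ± 0.18. At 72 h Fstl3, a follistatin-like protein, rose too (0.69 ± 0.19). The fourth call was Fst, the activin-binding follistatin, whose means of 14.0 at 0 h and 134 at 72 h both lie below the filter value, so that call is not read. In the mutant 4, 5 and 5 rose and 1, 0 and 0 fell from its own 0 h. Of all genes 2067, 1599 and 1768 were higher there and 1858, 1298 and 1638 lower. Against wild type 0 h 1, 4 and 6 rose, where 10.2%, 6.45% and 12.9% of all probe sets were called in either direction. The 4 and the 6 include Fst, with means of 14.0 at wild type 0 h, 132 at mutant 48 h and 254 at mutant 72 h. Only the last of these lies above the filter value, so these calls of Fst are not read either. Inhbb was called higher in the mutant at 72 h from its own 0 h array, at 50.5 and below the filter value, and from wild type 0 h (adjusted p = 5.84e-05). It was higher at 72 h than at 48 h in the mutant (1.57 ± 0.21, adjusted p = 0.00577). Leaving out single replicates gave 1 to 3 rises in wild type at 48 h and 2 to 4 at 72 h. No gene of the lists of receptors, SMADs, latency genes or ligands was called between genotypes at 24, 48 or 72 h.

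Among 16 measured genes known to be induced by TGF-beta, 6 rose and 0 fell in wild type at 24 h, 8 rose and 2 fell at 48 h, and 10 rose and 1 fell at 72 h, with medians of 0.60, 0.71 and 0.82. Over all 13411 genes, 180, 545 and 690 were higher and 99, 583 and 619 lower at these times. Their timing differed. These genes were on array type A, where wild type 24 h is 1 array, and 24 h was not tested against 48 h. The collagen Col1a1 was highest on that 24 h array (log2 2.90 ± 0.22 from 0 h). It was lower at 72 h than at 48 h (-0.94 ± 0.18, adjusted p = 0.0484). The matrix crosslinking enzyme Lox rose by 2.57 ± 0.20 at 24 h and 2.29 ± 0.16 at 72 h. Ccn2, the matricellular connective tissue growth factor, rose by 1.24 ± 0.21, 1.58 ± 0.17 and 2.25 ± 0.17 over the 3 times. Cdkn1a, a cell cycle inhibitor that p53 also induces, rose by 3.13 ± 0.20 at 72 h, and Cdkn2b, another such inhibitor, by 0.74 ± 0.16. The smooth muscle genes Tagln and Acta2 moved the other way, with Tagln at -0.81 ± 0.15 and Acta2 at -0.71 ± 0.18 at 48 h, both called. Of 5 smooth muscle markers, which include these 2 genes, 3 fell at 48 h, with summed intensities of 6340 to 6632 against 9992 to 10043 at 0 h.

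Markers of some other cell types changed over the same times, in either direction. Of 5 fibroblast markers, which share 3 collagens with the induced list, 4, 4 and 3 rose in wild type, and their summed intensity on array type A was 11943 to 14374 at 0 h, 25691 at 24 h, 19934 to 20883 at 48 h and 15766 to 18887 at 72 h. Of 6 neutrophil markers 0, 4 and 4 rose, with sums of 8348 to 9055 at 0 h and 17105 to 17769 at 48 h. Of 4 T and B cell markers 1, 4 and 4 fell, with sums of 5798 to 6037 at 0 h and 1629 to 1645 at 48 h. Of 6 macrophage markers 1, 3 and 2 rose, with sums of 7367 to 7564 at 0 h, 11812 to 12264 at 48 h and 12063 to 12857 at 72 h. None was at 0. Below the filter value lay 3 of the neutrophil markers at 0 h. So did 2 of the T and B cell markers at 24, 48 and 72 h. The part of these markers in the result was not tested. Of 5 endothelial markers 0 were called in wild type at any time. Their sums were higher on each oxygen array, with 11361 to 11984 at 0 h and 19789 at 24 h. At 48 h they were 15254 to 18710 and at 72 h 14411 to 15382. The markers did not move alike. Means of Cdh5, Kdr and Tek were above 0 h at each oxygen time. Tie1 was above at 24 h and 48 h and below at 72 h. Pecam1 was below at each time, with 437 at 0 h and 300, 398 and 346 under oxygen. The induced genes called numbered 6 of 16 in place of 10 at 48 h when either replicate of wild type 0 h or replicate 1a of wild type 48 h was left out, and 5 when replicate 1b of wild type 48 h was. At 72 h they numbered 5 in place of 11 when replicate 1a of wild type 0 h was left out and 4 for its 1b, and 7 and 6 for replicates 1a and 1b of wild type 72 h.

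Between genotypes, the induced genes called at 72, 48 and 24 h numbered 4, 2 and 0 of 16, against 135, 67 and 26 of all 13411 genes. At 72 h Tagln, an actin-binding protein of smooth muscle (1.47 ± 0.15, adjusted p = 0.00178), Col1a1 (1.28 ± 0.18, adjusted p = 0.00706) and Col3a1 (0.88 ± 0.16, adjusted p = 0.0394) were higher in the mutant, and Tgfbi, a secreted matrix protein, was lower (-0.91 ± 0.17, adjusted p = 0.0429). The mean intensity of Tagln was 8366 in the mutant and 2968.5 in wild type, and that of Col1a1 was 4655 and 1873. At 48 h Col3a1 (1.23 ± 0.16) and Tagln (0.90 ± 0.15) were higher. The count of 2 at 48 h was 0 when any replicate of either genotype at 48 h was left out, 1 without any replicate of wild type 0 h or of the mutant at 24 or 72 h, and 0 to 4 under the other alternatives. In the mean of the 3 oxygen times 5 were higher, Tagln, Junb, Col3a1, Acta2 and Col1a1, and 0 lower. Of all 13411 genes 99 were higher and 115 lower in that comparison. Of the 5 smooth muscle markers, which include Tagln and Acta2, 3 were higher in the mutant at 72 h. Their summed intensities were 16603 to 18086 against 7362 to 8215. Of the 5 fibroblast markers 2 were higher, with sums of 23572 to 27602 against 15766 to 18887. These 2 were Col1a1 and Col3a1, the same calls as in the induced list. Of 6 neutrophil markers 3 were lower, with sums of 4766 to 5763 against 15555 to 16789. Below the filter value on the mutant 72 h arrays lay 2 of the 6. Of 4 platelet markers 1 was lower at 72 h and 1 in the mean of the oxygen times. The part of these markers in the result was not tested. The count of 4 at 72 h was 1 without mutant 72 h replicate 1b or either wild type 72 h replicate, and 2 without either replicate of the mutant at 24 or 48 h or of wild type at 0 or 48 h, or mutant 72 h replicate 1a. The count of 5 in the mean was 2 when replicate 1a of wild type 48 h was left out, and 3 without mutant 24 h replicate 1b or mutant 48 h replicate 1a.

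Col1a1, Col3a1 and Lox were also higher in the mutant at 0 h (1.28 ± 0.22, 1.34 ± 0.20 and 1.13 ± 0.20), on the 1 array of type A that stood apart. Of these 3 calls 1 was left without replicate 1a or 1b of wild type 0 h, and 0 with fits restricted to the compared groups. Tagln was the only induced gene whose 72 h response differed between genotypes (1.24 ± 0.24, adjusted p = 0.0396). Under the alternatives other than leaving out replicates, 0 to 3 induced genes were called in that test. In the mutant 9, 9 and 10 of the 16 rose and 1 fell at each time from its own 0 h, where 2067, 1599 and 1768 of all 13411 genes were higher. From wild type 0 h 8, 11 and 11 rose, where 10.2%, 6.45% and 12.9% of all probe sets were called in either direction. Of 4 genes induced by BMP signals, the Id genes, Id2 fell by 0.71 in wild type at 48 h (log2 scale, adjusted p = 0.0214), and 0 were called in wild type at 24 h or 72 h. In the mutant Id1 rose at 24 h (1.21 ± 0.26) and 48 h (1.36 ± 0.26), Id3 fell by 0.83 at 24 h, and Id2 fell by 0.71 at 24 h and 0.62 at 72 h. These calls stayed against wild type 0 h except that of Id3 (-0.49, adjusted p = 0.112). No Id gene was called between genotypes.

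**Figure D4:**
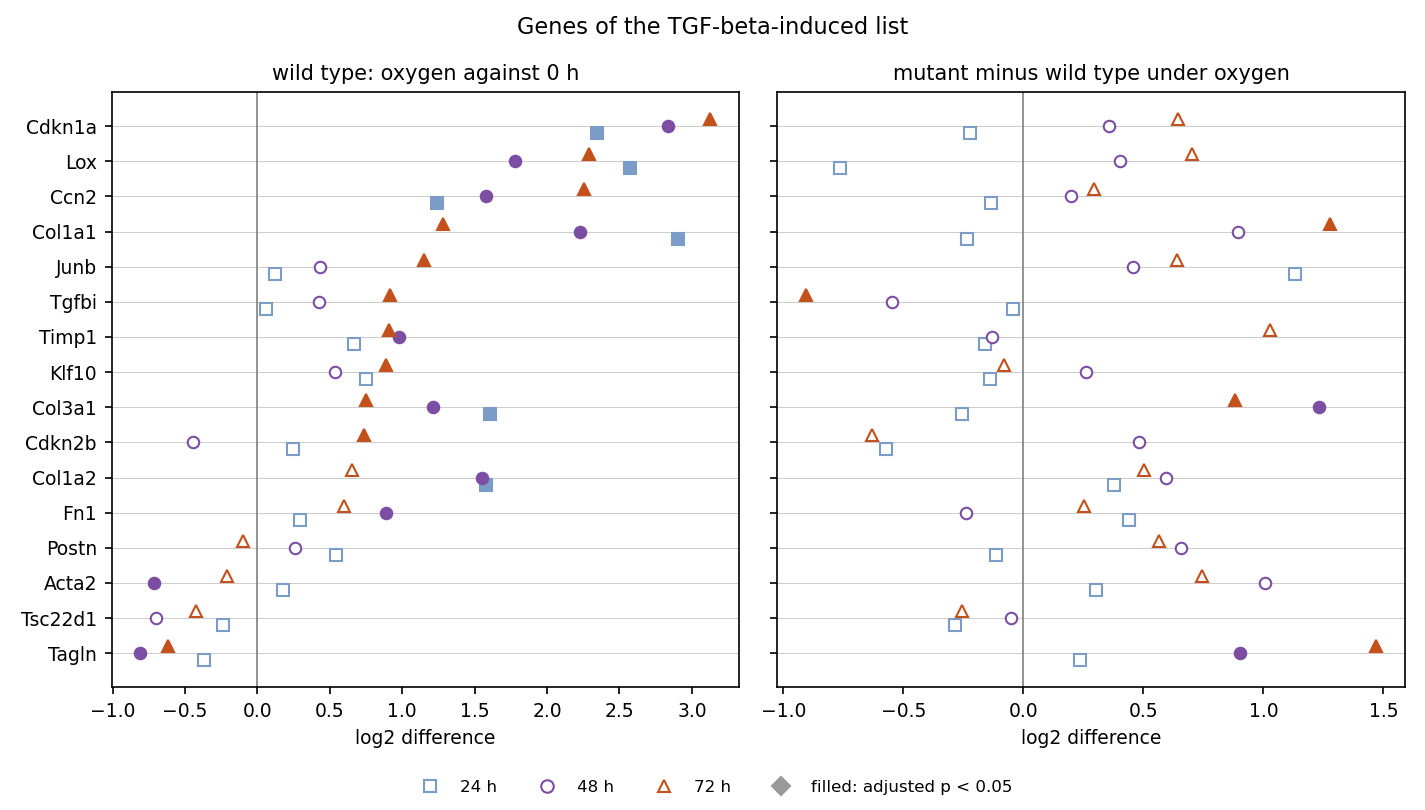
Log2 differences of 16 genes known to be induced by TGF-beta, ordered by their change in wild type at 72 h: wild type under oxygen against 0 h on the left, mutant minus wild type on the right. Squares are 24 h, circles 48 h and triangles 72 h, filled where the adjusted p is under 0.05; Cdkn1a at 72 h lies at 3.13 on the left, and Tagln at 72 h lies at 1.47 on the right and at -0.62 on the left.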

How the data were processed

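The authors deposited a linear intensity for every probe set on every array, already scaled: the 2%-trimmed mean lay between 800.17 and 800.52 on all 46 arrays. The tool and build: not given in the sources used here. There were 14 A arrays, 16 B arrays and 16 C arrays. For tests, log2 was taken of intensity plus a constant, the 25th percentile over the array type (78.1 for A, 126 for B, 106 for C), which makes folds of dim probe sets smaller. Control probe sets were removed, and a probe set was tested when above the 40th percentile (195, 272 and 211) on at least 2 arrays, which left 26833. The number of arrays limits the precision.

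Tests used limma 3.58.1 (R 4.3.3), fitting the 8 group means separately for each array type (a lone array takes the spread of the other groups), two-sided, with Benjamini-Hochberg adjustment over all tested probe sets, in 15 comparisons. Called means an adjusted p under 0.05. The step was tested on simulated data. Symbols came from the platform annotation tables, positions from RefSeq on GRCm38.

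The members and lists were chosen with earlier results of these data known. Full values are given for Tgfb1 and each member called in a comparison. From a list, at most 4 called genes with the smallest p are named in a comparison, by their brightest tested probe set; Cdkn2b at 72 h and further genes beyond the 4 were named after their values were seen. Of the listed genes, Zfyve9, Fbn1, Thbs1, Itgb6, Itgb8, Gdf15, Inha, Grem1, Chrd, Pf4, Cd8a and Krt5, among others, were not analysed here.

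Alternatives were quantile normalization, a floor instead of the constant, no filter, a 60th percentile filter, fits restricted to the compared groups, trend and robust options in eBayes, the replicate letter as a block, and leaving out each of 16 replicates in turn. The mutant under oxygen against wild type 0 h was added after seeing the data. Replicate letters were checked for pairing by the correlation of 1a minus 1b differences between groups, which was over 0.1 in 7 of 15 pairs of groups on A, 18 of 28 on B and 2 of 28 on C.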

Additional observations from a re-analysis of the deposited data

Results flagged for a closer look

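The response of Tgfb1 to 72 h of oxygen differed between genotypes, with a log2 difference of 3.09 between mutant and wild type by a test of the difference itself (limma, adjusted p = 0.02). It is the 72 h difference between genotypes of 0.68 (adjusted p = 0.552) less the 0 h difference of -2.41. The 0 h difference rests on 1 mutant array at an intensity of 37.5, below the filter value of 195, so its size depends on the constant added before the log2.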

How the results depend on the processing

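Of 21 called differences of single members, 485 values under alternatives gave 421 with the call kept, 64 with it lost and 0 reversed. Against wild type 0 h, 3 members were called at 48 h and 3 at 72 h in place of 5. With fits restricted to the compared groups, the members called were 0 in wild type at 24 h, 1 at 48 h, 0 at 72 h and 0 in the difference in response, and the induced genes called were 3 at 24 h, 6 at 48 h and 5 at 72 h in wild type and 0 between genotypes at 72 h. Wild type at 24 h gave 2 members with trend and robust and 2 with the 60th percentile filter. Wild type at 48 h gave 1 with the floor and 1 without a filter, and at 72 h 1 with the floor and 1 with quantile normalization. The induced genes called between genotypes at 72 h were 2 with the floor and 2 without a filter.

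Leaving out single replicates gave 0 to 1 members in wild type at 24 h, 0 to 2 at 48 h and 0 to 2 at 72 h. It gave 1 to 5 in the mutant at 24, 48 and 72 h, 0 to 1 between genotypes at 0 h, and 0 to 1 in the difference in response. Induced genes called ranged from 4 to 6 in wild type at 24 h, 5 to 10 at 48 h and 4 to 11 at 72 h, and between genotypes from 1 to 4 at 72 h and 2 to 5 in the mean. The low values in the mutant come without its 0 h replicate 1b, when only the 3 members on array type B can be tested.

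The replicate letters were not used as pairs in the main fits, as the labels do not say what they share. The correlations of 1a minus 1b differences between groups reached 0.368 on A, 0.245 on B and 0.124 on C. With the replicate block, member counts were 4, 5 and 5 in the mutant and 1, 2 and 3 in wild type at 24, 48 and 72 h, and probe sets called over all arrays at 72 h in wild type were 2560 against 2100.

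Over all probe sets, counts moved by more than 1.5 times under some alternatives, from 586 to 2560 for wild type at 72 h and from 148 to 1092 for the genotypes at 0 h. Dim signal limits Tgfb2 and the 4 untested probe sets.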
